A study of Rattus norvegicus with 6 samples.

Results

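The E2F and retinoblastoma family is the set of transcription factors and pocket proteins that gates entry into S phase. Its 10 rat genes were taken by name: the activator E2F genes E2f1, E2f2 and E2f3, the repressor genes E2f5 and E2f6, the atypical repressor genes E2f7 and E2f8, and the pocket protein genes Rb1, Rbl1 and Rbl2. A gene counted as measured where a probe of the array carried a RefSeq transcript accession of that gene. This held for 4 of the 10, E2f1, E2f3, E2f7 and Rbl2, each with 1 probe printed at 1 spot, among 13903 genes named on the array. E2f2, E2f5, E2f6, E2f8, Rb1 and Rbl1 were matched to no probe and are not analysed here. E2f1 and Rbl2 passed the filter on dim probes and are 2 of 11410 genes tested. E2f3 and E2f7 did not pass it and are given as intensities.

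The arrays compared islets of adult male rats (3 arrays, 1 rat each) with islets of 10-day-old rats (P10; 3 arrays, each a pool of rats). Islets are clusters of hormone-secreting cells in the pancreas, measured here as whole tissue, so each value averages over all cell types present. In such bulk RNA, fewer cells of a type and less RNA per cell cannot be told apart. The labels used here give no strain, no adult age, no sex of the young rats and no number of rats in a pool. Of 24684 probes, 17829 to 18731 stood well above background on each array, and no spot was saturated. Adult arrays 2 and 3 differed by about the noise between spots (a variance 1.06 times that predicted from repeated spots, against 12.3 and 14.3 for the other adult pairs), and were counted as 1 sample. P10 arrays 1 and 2 were counted as 1 sample following earlier work on these data, which these checks do not single out: by the same ratio all 3 P10 pairs differed by no more than spot noise (0.72 for arrays 1 and 2, 0.80 for 1 and 3, 0.70 for 2 and 3). Differences between P10 arrays still recurred across probes of one gene (Spearman's rho 0.32, 0.45 and 0.44 over 147 genes). Whether the P10 arrays hold 1, 2 or 3 separate samples is thus not settled by the values, and results are also given with 1 of the counted P10 replicates left out. This leaves n = 2 counted replicates a stage. Adult 1 had the same scan date in its file header as all P10 arrays, and adult 2 and 3 had another. Arrays of one scan date are called a slide here, which is an inference from the headers. Slide 1 is that of adult 1 and the P10 arrays. All 7 tested beta cell markers and 5 of 5 tested alpha cell markers were well above background on all 6 arrays.

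In textbook accounts, E2F proteins bind DNA as dimers with DP proteins. The activator E2Fs switch on genes of DNA replication at the start of S phase, and pocket proteins bind E2Fs and hold these genes down in cells that have left the cycle. Cyclin D with CDK4 or CDK6, and cyclin E with CDK2, phosphorylate pocket proteins and release E2F, while CDK inhibitors oppose them. The RBL2 product p130 is the pocket protein typical of resting cells. There it joins E2F4 or E2F5, a DP protein and the MuvB core in the DREAM complex. In cycling cells MuvB instead joins B-MYB and then FOXM1 and drives genes of mitosis. Beta cells of rodents divide often in the weeks after birth and seldom in adults.

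E2f1, the activator E2F, was lower in adult islets. Its signal, in log2 units above or below the 75th percentile of the array, was -1.20, -1.21 and -1.20 on adult arrays 1 to 3, and 1.17, 1.24 and 1.18 on P10 arrays 1 to 3. All adult arrays lay below all P10 arrays, and the gap was many times the spread within either stage. The mean was -1.203 ± 0.006 in adults and 1.194 ± 0.013 at P10 (SD, n = 2 counted replicates each). The change, adult minus P10, was -2.40 (SE 0.13), or 5.27-fold lower in adults (limma, Benjamini-Hochberg adjusted p = 0.00156 over all probes tested). Over all 11410 genes, 28.7% were called lower and 23.7% higher in adults at an adjusted p under 0.05, so that a call in either direction was common on these arrays. Counts of calls in the gene lists below are to be read beside these shares. A total of 733 genes (6.42%) had a lower change than E2f1, and the median change of all genes was -0.13 with quartiles of -0.90 and 0.63. The direction held before scaling as well: the processed intensity of E2f1 was 1143, 883 and 847 on the adult arrays, against 2286, 2281 and 2276 on the P10 arrays. The unscaled gap was smaller than the scaled one because the adult arrays were brighter as a whole, with 75th percentiles of log2 intensity of 10.93 to 11.36 in adults and 9.92 to 9.99 at P10.

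Rbl2, which encodes the pocket protein p130, was higher in adult islets. Its signal was 0.86, 1.26 and 0.83 on adult arrays 1 to 3, and 0.29, 0.28 and 0.17 on P10 arrays 1 to 3. The stages did not overlap, but adult array 2 stood above the other adult arrays by more than the whole range of the P10 arrays. The mean was 0.95 ± 0.13 in adults and 0.23 ± 0.08 at P10 (SD, n = 2 counted replicates each). The change was 0.73 (SE 0.15), or 1.65-fold higher in adults (limma adjusted p = 0.0222). Of all genes tested, 2568 (22.5%) had a higher change. With P10 arrays 1 and 2 left out the change was 0.78 (limma adjusted p = 0.212), and with P10 array 3 left out it was 0.67 (limma adjusted p = 0.27), so the call needed both counted P10 replicates. Unscaled intensities were 4767, 4895 and 3475 on the adult arrays and 1241, 1179 and 1126 on the P10 arrays, again without overlap. Since the adult arrays were brighter as a whole, an unscaled gap in this direction adds no support for a change of Rbl2. Tfdp1, a gene not called, had 8843, 7738 and 7467 on the adult arrays and 3465, 3308 and 3212 on the P10 arrays.

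The promoter of Rbl2 in the RefSeq table (assembly GRCr8, chr19:32096362-32096661, minus strand) runs from 250 bases before to 50 after the annotated start. It is shown 5′ to 3′ because Rbl2 is the pocket protein gene measured here. Capitals mark a match to the cell cycle homology region (CHR), the element through which MuvB is known to bind mitotic genes.
Rbl2: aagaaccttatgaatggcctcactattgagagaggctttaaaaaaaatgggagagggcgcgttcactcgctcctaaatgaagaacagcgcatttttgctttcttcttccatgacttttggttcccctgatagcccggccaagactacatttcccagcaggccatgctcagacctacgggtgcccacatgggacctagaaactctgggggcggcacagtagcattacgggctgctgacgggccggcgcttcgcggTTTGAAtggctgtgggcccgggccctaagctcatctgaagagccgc
The match began 4 bases past the start. None of the E2F-type octamers searched (TTTCCCGC, TTTGGCGC, TTTCGCGC and TTTGCCGC, on either strand) lay in this window. Those letters were present in 716 of 33469 promoters of the table (2.14%), and either CHR hexamer (TTTGAA or TTCGAA, on either strand) in 6608 (19.7%).

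E2f3, the other activator gene with a probe, and E2f7, an atypical E2F that represses E2F targets late in S phase, lay at or near background. E2f3 had processed intensities of 2.60, 2.24 and 2.63 on the adult arrays, and 2.48, 13.3 and 2.07 on the P10 arrays. Only P10 array 2 was well above background for it. E2f7 had 7.89, 5.04 and 6.51 on the adult arrays and 6.34, 6.43 and 13.0 on the P10 arrays, and only P10 array 3 was well above background. The dimmest probes called well above background stood between 6.60 and 9.45 on these arrays, so no level can be given for either gene in adults, nor on most P10 arrays. Without the filter on dim probes E2f7 was called lower in adults (-1.64, limma adjusted p = 0.0345) and E2f3 was not (-1.66, limma adjusted p = 0.0755). The scaling subtracts a higher percentile from the adult arrays. Before scaling, the median intensities were alike, at 2.60 in adults and 2.48 at P10 for E2f3, and at 6.51 in adults and 6.43 at P10 for E2f7.

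**Figure D1:**
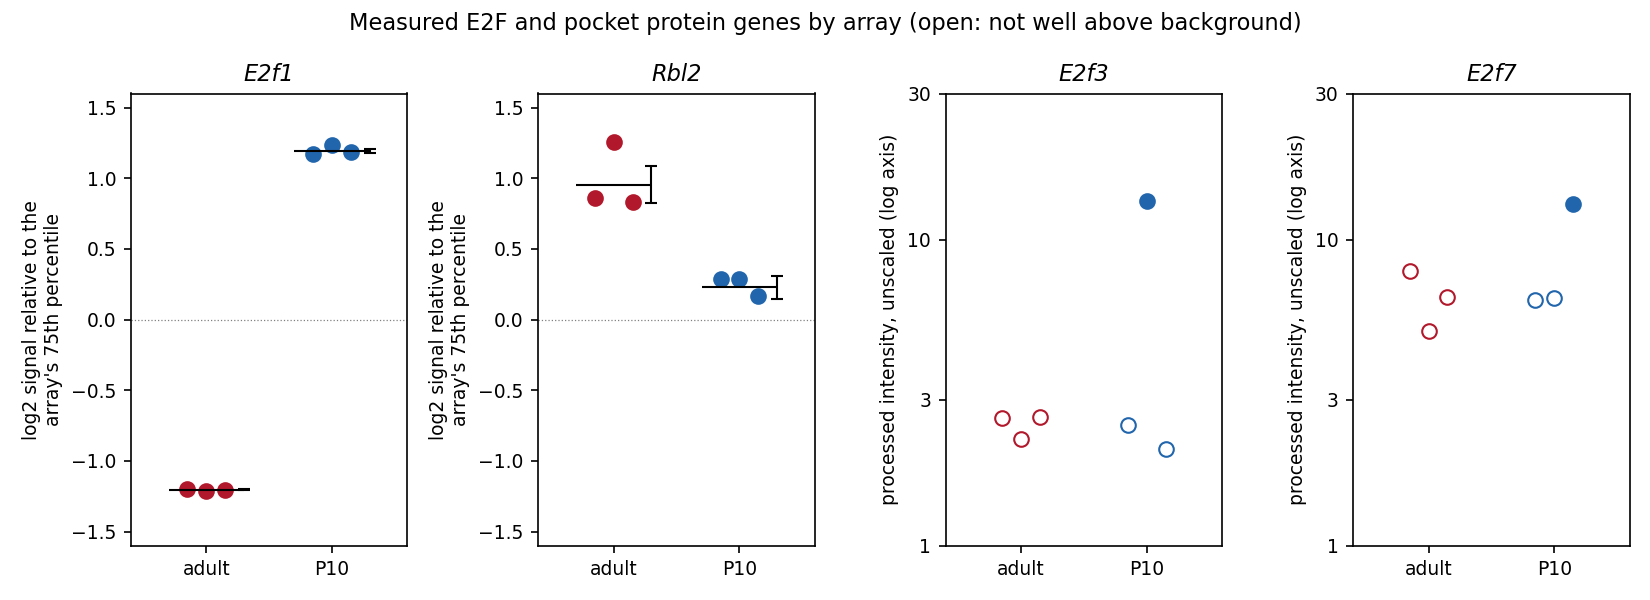
Signal of the 4 measured genes on each array, adult arrays left of P10 arrays. For E2f1 and Rbl2 the axis is log2 signal above or below the 75th percentile of the array, with lines for the mean and bars for the SD of n = 2 counted replicates. For E2f3 and E2f7 it is unscaled processed intensity on a log axis, and open points were not well above background. E2f1 lies near -1.20 in adults and near 1.19 at P10, and Rbl2 higher in adults.

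The promoter of E2f3 (GRCr8, chr17:34810166-34810465, plus strand) is shown because it is the promoter of a measured E2F gene that holds both kinds of match. Capitals mark a CHR hexamer 90 bases before the start and, further on, an E2F-type octamer on the minus strand 78 bases before it.
E2f3: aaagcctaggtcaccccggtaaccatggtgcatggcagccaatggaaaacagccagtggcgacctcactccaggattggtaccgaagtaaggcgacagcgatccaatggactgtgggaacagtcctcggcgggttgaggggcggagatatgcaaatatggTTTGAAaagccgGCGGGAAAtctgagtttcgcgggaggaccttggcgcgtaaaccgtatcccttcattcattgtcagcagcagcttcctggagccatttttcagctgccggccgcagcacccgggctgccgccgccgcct
Of the 10 family genes, 6 had a promoter in the table (E2f3, E2f6, E2f7, Rb1, Rbl1 and Rbl2). An octamer was present in 3 of them, E2f3, Rb1 (2 bases past the start) and Rbl1 (18 bases before it). A match is a description of letters and not a bound site, and its absence from a window says nothing of the factor.

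E2f1 and Rbl2 moved in opposite directions. Their difference within an array is unaltered by any constant subtracted from the whole array, such as its percentile or median, but not by quantile normalization. E2f1 minus Rbl2 was -2.06, -2.47 and -2.04 log2 units on the adult arrays and 0.88, 0.95 and 1.02 on the P10 arrays. Probes differ in brightness for equal RNA, so only the shift between stages can be read from these values. It was -3.12, with means of -2.16 ± 0.14 in adults and 0.97 ± 0.07 at P10 (SD, n = 2 counted replicates each). The exact two-sided permutation test gave p = 0.333, the smallest that 2 against 2 can give. Over all 6 arrays the shift was -3.14 (exact permutation p = 0.1, the smallest that 3 against 3 can give). The shift was -3.09 with quantile normalization and -2.78 with normexp background correction before it.

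The genes whose profile over the 6 arrays was most like that of E2f1, each profile centred on its own mean, were Wdtc1, Ccnd2 and Nfia. Their root mean square differences from E2f1 were 0.026, 0.030 and 0.036 log2 units, the smallest among 11501 protein-coding probes compared. Wdtc1 changed by -2.41, Ccnd2 by -2.40 and Nfia by -2.38 (limma adjusted p = 0.00156, 0.00156 and 0.00165). Ccnd2 encodes cyclin D2, a partner of CDK4 and CDK6 upstream of the pocket proteins. For Rbl2, compared after its values had been seen, the nearest were Gimap4 (0.047), Lingo1 (0.071) and Tmem98 (0.073). All 6 of these genes share the stage difference of the gene they were set against.

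Among the partners of the family, neither DP gene was called. Tfdp1, which encodes DP1, had 1.75, 1.92 and 1.94 on the adult arrays and 1.77, 1.77 and 1.68 on the P10 arrays, which overlap (change 0.11, SE 0.15, limma adjusted p = 0.538). Tfdp2, which encodes DP2, had -5.78, -4.27 and -4.12 in adults and -3.31, -3.31 and -3.70 at P10. All adult arrays were lower, but adult array 1 stood far from the other adult arrays (change -1.48, SE 0.60, limma adjusted p = 0.107). On slide 1 alone, where adult 1 is the only adult array, the change was -2.27 (limma adjusted p = 0.00175), and without adult 1 it was -0.69 (limma adjusted p = 0.0439). With normexp background correction it was -0.47 (limma adjusted p = 0.105), and Tfdp2 was called in 5 of 15 alternative settings. Among these 5, slide 1 alone and leaving out adult arrays 2 and 3 are the same fit.

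Of 8 listed genes of the MuvB core and its cell cycle partners, 6 were tested, 3 of which were lower in adults, 1 higher and 2 not called. The 3 core genes tested stood between -0.58 and 0.30, and the mitotic partners Mybl2 and Foxm1 below -2. Mybl2, which encodes B-MYB and is a textbook E2F target, had -5.20, -4.83 and -4.92 on the adult arrays, against -1.47, -1.23 and -1.30 on the P10 arrays. The adult arrays lay over 3 log2 units below the P10 arrays, and the change was -3.71 (SE 0.17, limma adjusted p = 0.00143). With normexp background correction it was -2.37 (SE 0.08), near that of E2f1 in the same setting, -2.25 (SE 0.08). Foxm1, the mitotic transcription factor, had -2.23, -1.997 and -2.08 in adults and 0.16, 0.13 and 0.12 at P10 (change -2.26, SE 0.14, limma adjusted p = 0.00197). Of the core itself, Lin54, the DNA-binding subunit, stood at -0.58 (limma adjusted p = 0.041), Rbbp4 at -0.26 (limma adjusted p = 0.155) and Lin37 at 0.30 (limma adjusted p = 0.276). Rbbp4 was called lower with every array as its own replicate and with the slide as a block (-0.27 and -0.28, limma adjusted p = 0.0179 and 0.0151), and Lin37 higher with median scaling and without adult array 1 (0.60 and 0.52, limma adjusted p = 0.0306 and 0.013). Mybl1, the A-MYB gene of the germ line, was higher at 0.64 (limma adjusted p = 0.0363), and at 1.35 with quantile normalization (limma adjusted p = 0.00834). The calls of Lin54 and Mybl1 were lost when either counted P10 replicate was left out. That of Lin54 was also lost with scaling by the array median and without the filter on dim probes, and that of Mybl1 with the slide as a block.

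Genes that E2F activates for S phase were lower in adult islets. Of 34 listed targets 24 were tested, 20 were called lower, 1 higher and 3 did not pass. Of the 24, Brca1, called lower, passed the filter on dim probes only through the P10 arrays. Ezh2, not called, passed it only through the adult arrays. In the fit limited to probes well above background on all 6 arrays, 19 of 22 targets were called lower. Over all genes tested, 28.7% were called lower. The median change of the tested targets was -1.68, or 3.21-fold lower in adults, beside a median of -0.13 over all genes. Chaf1b, a subunit of the chromatin assembly factor that loads histones behind the fork, had -2.44, -2.71 and -2.72 on the adult arrays and 0.62, 0.74 and 0.76 on the P10 arrays (change -3.30, SE 0.16, limma adjusted p = 0.00149). Orc1, of the origin recognition complex, had -5.66, -5.47 and -5.54 in adults and -2.44, -2.55 and -2.63 at P10 (change -3.02, limma adjusted p = 0.00146). For both genes every adult array lay below every P10 array, but with normexp background correction, which raises dim signals, Orc1 changed by -1.46 (SE 0.09, limma adjusted p = 0.000864). Cdc6, which loads the MCM helicase, had -3.50, -3.80 and -3.83 in adults and -1.25, -1.15 and -1.09 at P10 (change -2.51, limma adjusted p = 0.00223, and -1.76 with normexp).

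The list did not move as a block. Ccne2, which encodes cyclin E2, was higher in adults, with -2.91, -2.99 and -2.77 on the adult arrays and -3.37, -3.47 and -3.57 on the P10 arrays (change 0.60, SE 0.14, limma adjusted p = 0.0292). Its sister gene Ccne1 was lower, with -2.08, -1.70 and -1.73 in adults and -0.64, -0.65 and -0.72 at P10 (change -1.21, SE 0.18, limma adjusted p = 0.0107). The calls of Ccne1 and Ccne2 were lost when either counted P10 replicate was left out. The replication clamp gene Pcna stood at -0.31 (limma adjusted p = 0.143), the thymidylate synthase gene Tyms at -0.17 (limma adjusted p = 0.372) and the histone methyltransferase gene Ezh2 at 0.01 (limma adjusted p = 0.977). None of these 3 was called as reported, and they were named after their values had been seen. Pcna was called lower with every array as its own replicate (-0.33, limma adjusted p = 0.0229) and without adult array 1 (-0.40, limma adjusted p = 0.0235). Tyms was called lower with the slide as a block (-0.29, limma adjusted p = 0.0214), and Ezh2 higher with quantile normalization (0.95, limma adjusted p = 0.0449). Ezh2 was near background at P10, with processed intensities of 8.03, 10.8 and 13.8, and only P10 array 3 was well above background. With normexp background correction Ezh2 stood at 0.13 and was not called (limma adjusted p = 0.234). Without P10 replicate 3, or without P10 arrays 1 and 2, 13 of the 24 were called lower in place of 20.

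Mitotic genes that MuvB drives with B-MYB and FOXM1 were also lower. Of 25 listed, 15 were tested, 14 were called lower and 0 higher, beside 28.7% of all genes called lower. The median change of the 15 was -1.71, or 3.26-fold lower in adults. Aurkb, the kinase of the chromosomal passenger complex, had -4.06, -3.80 and -3.77 on the adult arrays and -1.80, -1.73 and -1.91 on the P10 arrays (change -2.09, SE 0.17, limma adjusted p = 0.00285). The spindle checkpoint kinase gene Ttk had -1.93, -2.63 and -2.83 in adults and -0.45, -0.27 and -0.15 at P10 (change -2.08, SE 0.32, limma adjusted p = 0.0114). Ccna2, the cyclin of S phase and G2, and Ccnb1, the cyclin of mitosis, both stood at -2.07 (limma adjusted p = 0.00291 and 0.0113). Bub1, a checkpoint kinase gene, was the tested gene that did not pass. It had -0.87, 0.53 and 0.73 in adults and 0.63, 0.42 and 0.19 at P10, so that only adult array 1 lay below the P10 arrays (change -0.48, SE 0.56, limma adjusted p = 0.504). With the slide as a block Bub1 was called lower (-1.29, limma adjusted p = 0.00233), as on slide 1 alone (-1.23, limma adjusted p = 0.00602), where adult 1 is the only adult array. Without adult array 1 it stood at 0.27 (limma adjusted p = 0.245). With normexp background correction Aurkb stood at -1.42 and Ccnb1 at -1.19 (limma adjusted p = 0.000732 and 0.00908).

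**Figure D2:**
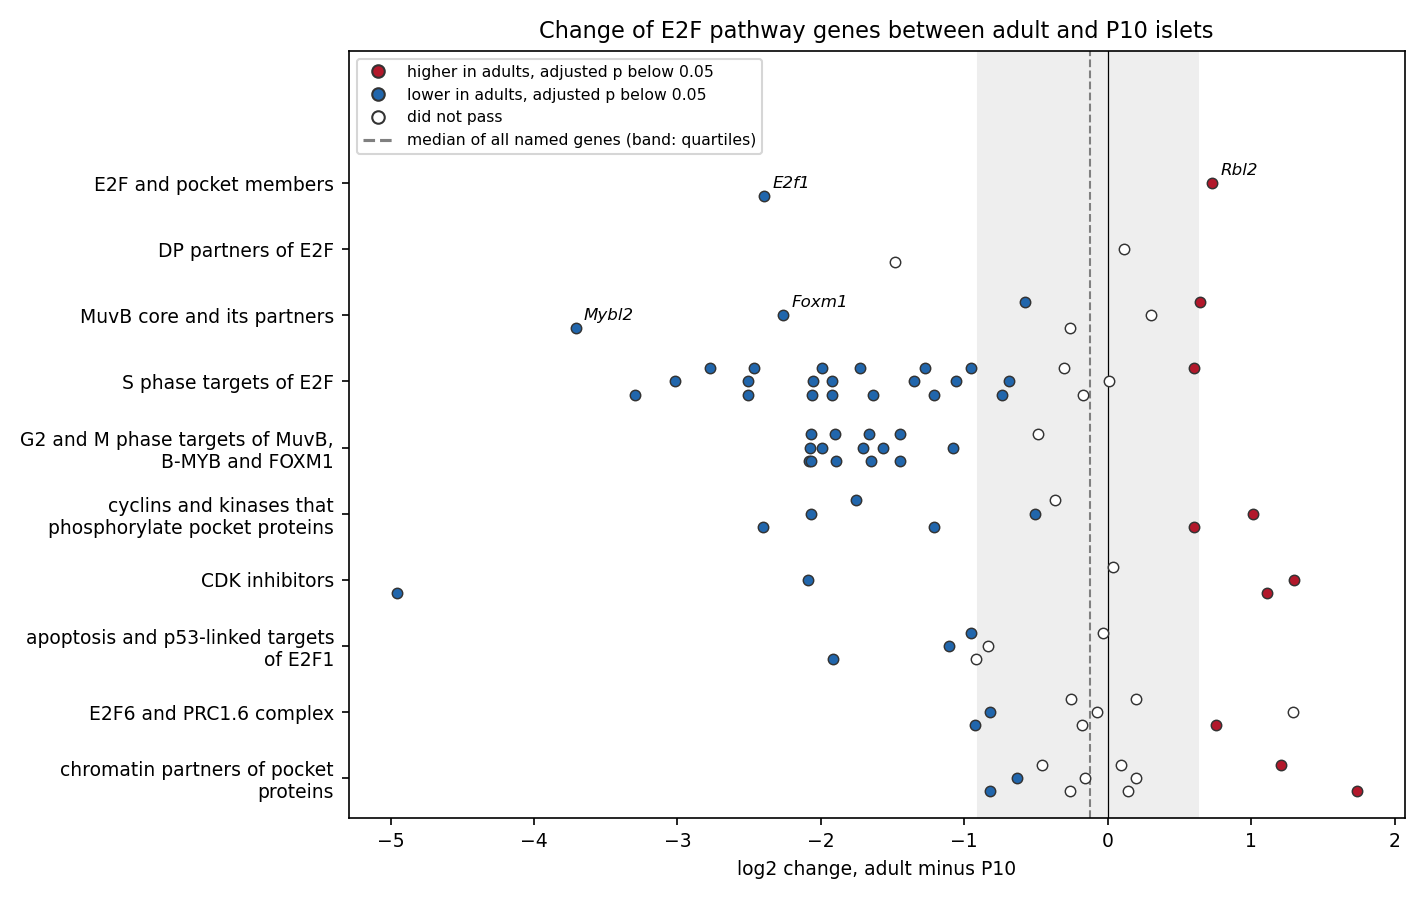
Change of every tested gene of the family and of 9 pathway and target lists, as log2 signal in adults minus P10. Filled points passed an adjusted p of 0.05 (limma), open points did not, and the dashed line and band give the median of all genes, -0.13, and their quartiles. Most S phase and mitotic targets lie near or below the lower quartile, while the chromatin partners lie on both sides of 0.

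The promoters of these targets differed in the letters they hold. Of 26 S phase targets with a promoter in the table, 14 (53.8%) held an E2F-type octamer and 4 (15.4%) a CHR hexamer. Of 21 mitotic targets 1 (4.76%) held an octamer and 15 (71.4%) a CHR hexamer. Over all promoters of the same length the shares were 2.14% and 19.7%. Since genes were listed as targets from knowledge that includes such elements, these shares describe the lists and are not a finding of the arrays. Among the targets called lower with a promoter in the table, 6 of 14 S phase genes held an octamer (Cdt1, Mcm7, Mcm2, Mcm6, Chek1 and Cdc25a). A CHR hexamer was held by 8 of 11 mitotic genes called lower (Ttk, Cenpa, Ccnb2, Plk1, Cdca8, Cdk1, Kif23 and Prc1).

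For the 4 S phase genes of that group with the largest falls, the bases around the match are shown 5′ to 3′ on the gene's strand, with octamer matches on either strand in capitals (GRCr8, chr19:67529240-67529279 for Cdt1, chr12:22163388-22163427 for Mcm7, chr4:122918085-122918124 for Mcm2 and chr13:42404468-42404507 for Mcm6).
Cdt1: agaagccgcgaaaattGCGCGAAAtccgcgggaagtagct
Mcm7: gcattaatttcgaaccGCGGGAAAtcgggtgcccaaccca
Mcm2: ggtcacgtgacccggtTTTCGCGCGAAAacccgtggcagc
Mcm6: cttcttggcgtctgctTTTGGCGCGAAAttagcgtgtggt
Cdt1, the licensing factor that works with Cdc6, changed by -2.06, Mcm7 by -1.99, Mcm2 by -1.92 and Mcm6 by -1.73 (limma adjusted p = 0.0019, 0.00395, 0.00538 and 0.00382). MCM proteins form the replicative helicase. Each of the 4 promoters held 2 matches. In Mcm2 and Mcm6 they overlap within the capitals, beginning 14 and 10 bases before the start in Mcm2, and 139 and 135 in Mcm6. In Cdt1 the match shown began 7 bases past the start and another lay 32 past it, and in Mcm7 the match shown began 233 bases before the start and another lay 52 before it.

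The same is shown for the 4 mitotic genes of that group with the largest falls, with the CHR hexamer in capitals (chr8:93634627-93634664 for Ttk, chr6:31431647-31431684 for Cenpa, chr8:79981851-79981888 for Ccnb2 and chr1:186147648-186147685 for Plk1).
Ttk: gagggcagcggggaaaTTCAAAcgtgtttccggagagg
Cenpa: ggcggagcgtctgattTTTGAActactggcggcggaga
Ccnb2: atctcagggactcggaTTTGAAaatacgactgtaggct
Plk1: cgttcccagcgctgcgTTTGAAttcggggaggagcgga
Cenpa, the centromeric histone H3 variant, changed by -1.99, the cyclin gene Ccnb2 by -1.90 and the polo-like kinase gene Plk1 by -1.71 (limma adjusted p = 0.00297, 0.00228 and 0.004). The hexamer began 4 and 6 bases past the start in Ttk and Plk1, and 116 and 214 bases before it in Cenpa and Ccnb2. Ccnb2 held another, 43 bases before the start.

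**Figure D3:**
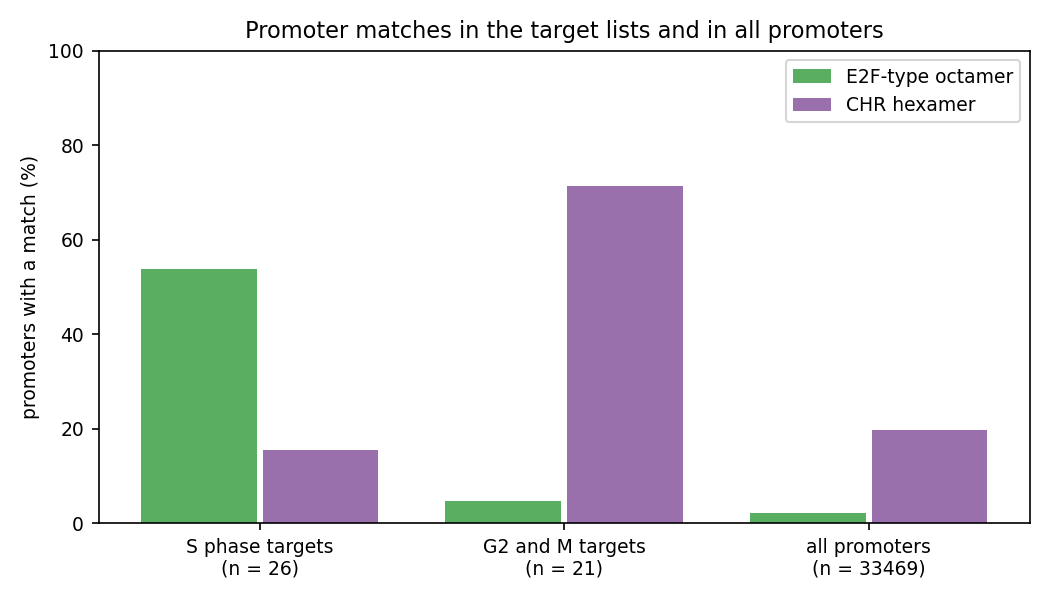
Share of promoters (percent, 250 bases before to 50 after the start) that hold an E2F-type octamer or a CHR hexamer, for S phase targets, mitotic targets and all promoters of the RefSeq table. The octamer share is 53.8% in S phase targets and the hexamer share 71.4% in mitotic targets, against 2.14% and 19.7% of all promoters.

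Upstream of the pocket proteins, cyclins and kinases moved in both directions: of 8 tested, 5 were lower in adults, 2 higher and 1 not called. Besides Ccnd2, Ccna2 and Ccne1, Cdk2 was lower, at -1.76 (SE 0.13, limma adjusted p = 0.00241). Ccnd1, which encodes cyclin D1, was higher, with 1.08, 1.55 and 1.56 on the adult arrays and 0.36, 0.32 and 0.27 on the P10 arrays (change 1.01, SE 0.22, limma adjusted p = 0.024). Cdk4 stood at -0.51 (limma adjusted p = 0.04), a call lost under quantile normalization, scaling by the array median, the authors' values and no filter on dim probes. The calls of Ccnd1, Ccne1, Ccne2 and Cdk4 were lost when either counted P10 replicate was left out.

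Of 5 CDK inhibitors tested, 2 were lower, 2 higher and 1 not called. Cdkn1a, the p21 gene, was not tested because its spot on adult array 1 was left out as an outlier. It had 1.15 and 1.13 on adult arrays 2 and 3, and 3.36, 3.47 and 3.47 on the P10 arrays. Cdkn1c, which encodes p57, had -1.85, -1.55 and -1.54 on the adult arrays and 3.18, 3.34 and 3.26 on the P10 arrays (change -4.96, SE 0.17, limma adjusted p = 0.00132). Cdkn2b, which encodes p15, stood at -2.09 (limma adjusted p = 0.00388), and at -1.47 with normexp background correction. Cdkn2c, the p18 gene, was higher at 1.2996 and Cdkn1b, the p27 gene, at 1.11 (limma adjusted p = 0.00428 and 0.0217), both calls lost when either counted P10 replicate was left out.

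Of 6 tested genes that link E2F1 to apoptosis, 3 were lower and 0 higher, with a median of -0.93. Apaf1, the scaffold of the apoptosome, stood at -1.11 and Casp8 at -0.95 (limma adjusted p = 0.00578 and 0.0134), and both of these calls were lost when either counted P10 replicate was left out.

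E2F6 works with a Polycomb complex, PRC1.6, that keeps germ line genes silent in somatic cells. Of 8 tested genes of this complex, 2 were lower, 1 higher and 5 not called, with a median of -0.13 beside -0.13 over all genes. Max stood at -0.92, Wdr5 at -0.82 and Yaf2 at 0.76 (limma adjusted p = 0.0472, 0.029 and 0.0187), and none of these calls held when either counted P10 replicate was left out. Max was also not called without the filter on dim probes, nor Wdr5 with scaling by the array median. Of 8 listed germ line genes known to be repressed through E2F6 or PRC1.6, 5 passed the filter on dim probes. Of these, Ddx4 and Sycp3 passed only through the adult arrays and Smc1b only through the P10 arrays, so that a difference was built into their passing and no count or test of them is given. Only Tubb3 and Stag3 were well above background on every array, and they moved in opposite directions. Tubb3, a tubulin gene known from neurons, had 1.87, 1.44 and 1.41 on the adult arrays and -1.94, -1.89 and -1.87 on the P10 arrays (change 3.54, SE 0.20, limma adjusted p = 0.00172). Stag3 had -5.52, -4.44 and -4.55 in adults and -3.56, -3.53 and -3.75 at P10. It was not called (change -1.36, SE 0.40, limma adjusted p = 0.0521). Ddx4 and Sycp3 were at least 6.76-fold and 1.55-fold brighter in adults, and Smc1b at least 10.9-fold dimmer in adults. These folds set the stage with signal against the lowest well-measured signal of the other arrays, and are approximate.

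Pocket proteins silence targets with chromatin enzymes, and of 10 tested genes of these complexes 2 were lower, 2 higher and 6 not called. Cbx5, which encodes HP1 alpha, was higher at 1.74, and the chromatin remodeller gene Smarca2 at 1.21 (limma adjusted p = 0.01 and 0.00981). The histone deacetylase gene Hdac3 was lower at -0.82 and Arid4b at -0.63 (limma adjusted p = 0.0402 and 0.0331). The calls of Smarca2, Hdac3 and Arid4b were lost when either counted P10 replicate was left out, that of Cbx5 without P10 arrays 1 and 2, and that of Arid4b with scaling by the array median.

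Markers of other cell types differed between the stages on the same arrays. Levels were summed over each list in units of the array's 75th percentile. That percentile was higher on the adult arrays (log2 10.93 to 11.36, against 9.92 to 9.99 at P10), which lowers adult sums relative to those at P10. Enterocyte markers were lower in 10 of 10 tested, with sums of 9.96 to 10.6 in adults and 279 to 294 at P10, and all adult arrays had 7 of the 10 well above background (not Apoa4, Fabp1 and Fabp2). Markers of intestinal stem and crypt cells, which divide, were lower in 2 of 4 tested, Axin2 at -3.12 and Smoc2 at -1.12, with sums of 0.557 to 0.708 in adults and 1.63 to 1.85 at P10, and the call of Smoc2 was lost when either counted P10 replicate was left out, and on no array did Lgr5 or Tnfrsf19 stand well above background. Acinar markers were lower in 11 of 13, with sums of 625 to 874 in adults and 1755 to 1869 at P10. With quantile normalization 5 acinar markers were lower and 1 higher, and their median change was -0.13, against -1.31 as reported. The size of the acinar gap thus depended on the scaling. Mesenchymal markers were lower in 3 of 4 and higher in 1, with sums of 48.7 to 52.6 in adults and 104 to 111 at P10. Duct cell markers were lower in 2 of 4 and higher in 1, with sums of 13.6 to 15.4 in adults and 13.4 to 13.7 at P10. Erythroid markers were lower in 3 of 5 and higher in 1, with sums of 52.7 to 57.9 in adults and 37.7 to 38.6 at P10.

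Leukocyte markers were higher in 13 of 13 tested, with sums of 69.1 to 79.6 in adults and 9.60 to 14.0 at P10. Endothelial markers were called in 0 of 6, with sums of 40.9 to 49.6 in adults and 34.3 to 35.3 at P10. Of the endocrine lists, beta cell markers were higher in 4 of 7 and lower in 1 (sums of 263 to 368 in adults and 330 to 365 at P10), and alpha cell markers higher in 4 of 5 and lower in 1 (82.2 to 119 in adults and 151 to 161 at P10). The genes called lower were the hormone genes Ins1 and Gcg, named after their values were seen. With quantile normalization neither was called lower (0.18 and 0.32, limma adjusted p = 0.291 and 0.083), nor when either counted P10 replicate was left out. The part of these cell types in the values of E2f1, Rbl2 and the target genes was not tested.

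**Figure D4:**
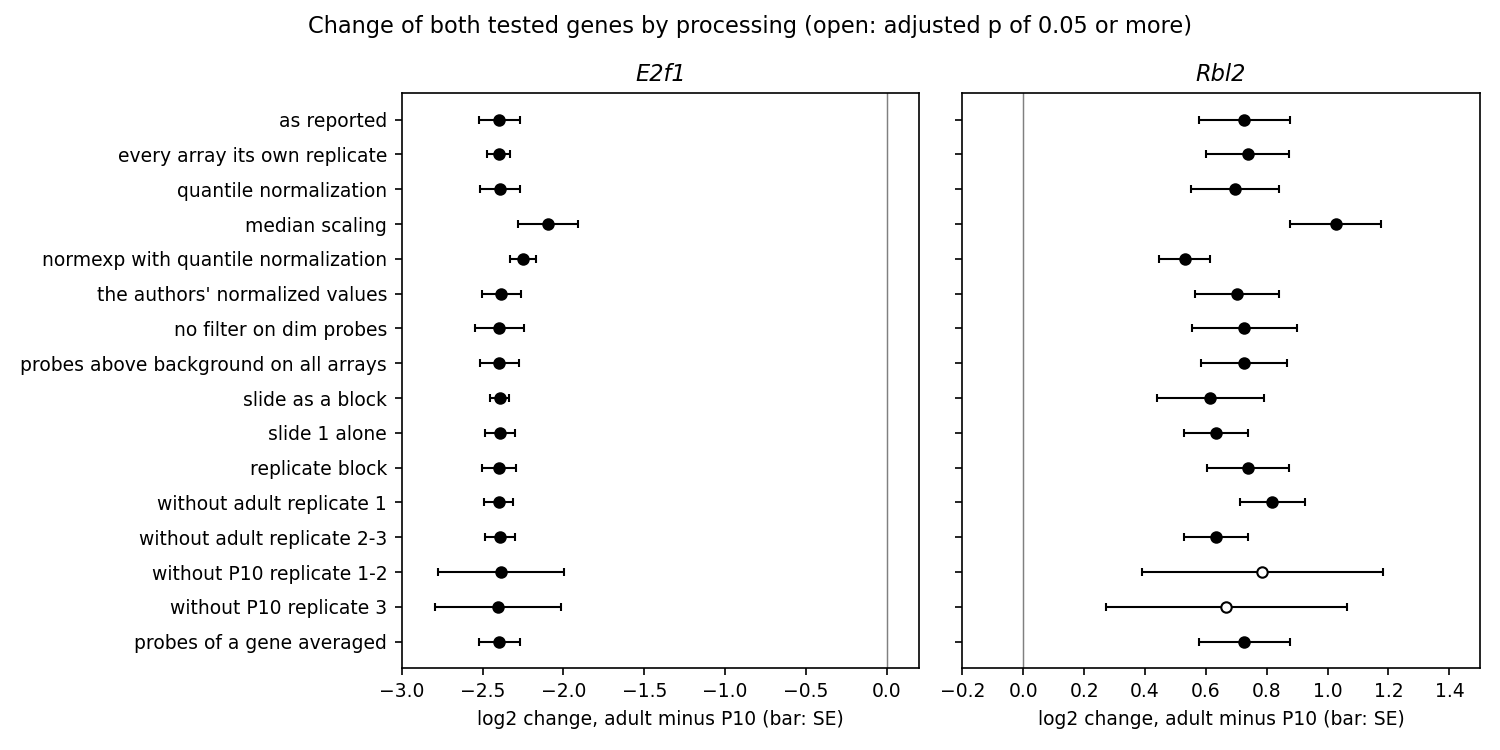
Change of E2f1 and Rbl2, as log2 signal in adults minus P10 with its SE, as reported and under 15 alternative settings. Open points had an adjusted p of 0.05 or more. E2f1 stays between -2.41 and -2.10 and Rbl2 between 0.53 and 1.03, with Rbl2 open where a counted P10 replicate was left out.

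Under the 15 alternatives E2f1 was called lower each time, with limma adjusted p from 3.79e-06 to 0.0161. Rbl2 was called higher in 13 of 15, with limma adjusted p from 0.00405 to 0.27. Within slide 1, which holds adult array 1 and all P10 arrays, E2f1 stood at -2.39 and Rbl2 at 0.63 (limma adjusted p = 0.00039 and 0.00888). Scaling moved the median of all genes, to 0.04 with quantile normalization and 0.17 with scaling by the array median. Relative to that median, E2f1 changed by -2.27 as reported, -2.43 with quantile normalization and -2.27 with median scaling, and Rbl2 by 0.85, 0.66 and 0.85.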

How the data were processed

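Cy3-labelled RNA had been hybridised, 1 sample an array, to an Agilent array of mRNA and lncRNA probes. Per the file headers, the deposited processed intensity was background-subtracted and detrended, not scaled between arrays; per the submitters' processing notes it was read with Agilent Feature Extraction 11.0.1.1. The authors also deposited normalized log2 values by a method not given in the sources used here; 98.8% lay within 0.05 of quantile-normalized log2 processed signals.

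Log2 processed signal minus the array's 75th percentile was used. Outlier-flagged and control spots were left out and the spots of a probe averaged. A probe entered if all adult arrays, or all P10 arrays, had it well above background, and if every counted replicate had a value. Bright probes whose spot was flagged on adult array 1 or P10 array 3 could thus go untested, among them those of Cdkn1a and Cdc20. Adult minus P10 was fitted with limma 3.58.1 (R 4.3.3; lmFit, eBayes) over all probes, with Benjamini-Hochberg adjustment and a threshold of 0.05, and the procedure was tested on simulated data. The replicates counted were adult 1, the mean of adult 2 and 3, the mean of P10 1 and 2, and P10 3. The number of arrays limits the precision, and the p-values measure only the spread between these samples. Each gene is given by its brightest tested probe. Symbols came from RefSeq accessions (GRCr8 table), which named 14294 probes, and promoters from the RefSeq GRCr8 table. The array's own build is rn4, per the file headers, and none of its coordinates are used.

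The family genes and all gene lists were chosen with earlier results of these data known. Named genes were, per list, up to 4 called with the largest change and up to 2 called in the other direction, plus Tfdp1, Tfdp2, Mybl2, Foxm1, Cdk4 and Ccnd1; some genes the rule picks are not reported here, and others are named after their values were seen, as are those in the promoter paragraphs. Some genes are on more than 1 list. Normexp was planned on mean spot signals, which the files used here do not hold, and was run on spot medians with an offset of 50.

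Same-numbered arrays of the stages did not deviate together (Pearson's r of -0.21, 0.08 and -0.24 over 18109 probes), so the numbers do not pair the samples.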

Additional observations from a re-analysis of the deposited data

How the results depend on the processing

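The counts were recomputed under 15 alternatives. Slide 1 alone and leaving out adult arrays 2 and 3 are the same fit, counted separately among the 15 here and above. Without the filter on dim probes 2 family genes were lower in adults in place of 1, the added gene being E2f7, because that alternative tests probes near background. Leaving out 1 counted replicate at a time gave 1 family gene lower each time, 0 to 1 higher, 13 to 21 S phase targets lower and 10 to 15 mitotic targets lower. The lowest of these counts came without P10 arrays 1 and 2 or without P10 array 3, where the lone P10 sample is assumed to vary like the adults. Over all genes those fits called 1287 lower and 1058 higher, and 1373 lower and 1075 higher, in place of 3279 and 2701. The slide as a block called 5117 and 3783, and slide 1 alone 5058 and 3700. Scaling by the array median placed 42.2% of calls lower in adults, against 54.8% as reported and 47.6% with quantile normalization. With the replicate block, E2f1 stood at -2.40 (limma adjusted p = 0.000554) and Rbl2 at 0.74 (limma adjusted p = 0.0121), and the block ended no call of a named gene. Of the values of single named genes under the alternatives, 1164 kept their side of the threshold, 72 lost the call, 16 gained one and 13 changed sign. Of the 72, 30 came without P10 arrays 1 and 2 and 27 without P10 array 3. Ins1 and Gcg changed sign with quantile normalization (0.18 and 0.32), normexp (0.14 and 0.32) and the authors' values (0.18 and 0.32). Rbbp4 and Tyms did so with median scaling (0.037 and 0.13). Ezh2 did so with the slide as a block (-0.10), on slide 1 alone or, the same fit, without adult arrays 2 and 3 (-0.19). It also did so without P10 arrays 1 and 2 (-0.26), and Bub1 without adult array 1 (0.27). Leaving out 1 counted replicate at a time gave -0.26 to 0.29 for Ezh2 and -1.23 to 0.27 for Bub1. Normexp on mean spot signals was not run. The cause of these changes was not tested, other than where fewer samples or added dim probes make it plain. Signal over background limits E2f3 and E2f7, and Ezh2 at P10.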
